A study of Homo sapiens with 4 samples.

Results

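The ATF4, CHOP and TRIB3 stress genes were taken as 10 named genes, ATF4, ATF3, DDIT3 (which encodes CHOP), DDIT4, TRIB3, CHAC1, SESN2, CEBPB, PPP1R15A and VLDLR, and were read from every probe that named 1 of them alone. This gave 12 probes of the 31741 on the array and 10 genes of the 18365 with a single-gene probe. ATF4 and TRIB3 had 2 probes each, the other 8 genes had 1 probe each, and 0 probes named a member together with another gene. The levels came from 4 samples: HepG2 cells with 10 μM GSK343, HepG2 control cells, A549 cells with 10 μM GSK343 and A549 control cells, all collected at 6 h. HepG2 is a human liver cancer cell line, A549 is a human lung cancer cell line, and GSK343 is an inhibitor of the histone methyltransferase EZH2 that competes with its methyl donor. All 4 cultures were in serum-supplemented DMEM, and the labels give the control no vehicle and no dose. The comparison asks which genes differ with GSK343 in each line. Each condition had 1 array of Human OneArray Plus, so a difference within a line has no replicate check and precision is limited by how few arrays there were.

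These genes belong to the integrated stress response. In this pathway, kinases that sense amino acid shortage, misfolded protein in the endoplasmic reticulum (ER), double-stranded RNA or lack of heme phosphorylate the translation factor eIF2, which lowers general protein synthesis and favours translation of the ATF4 mRNA. ATF4 is a basic leucine zipper transcription factor that pairs with C/EBP proteins and activates genes of amino acid supply, redox balance and, through CHOP and TRIB3, cell death. Because ATF4 is controlled largely through translation, its mRNA can be a poor measure of its protein. Protein and eIF2 phosphorylation were not measured on these arrays.

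Intensity is the deposited brightness of a spot on a linear scale, and a difference is the log2 intensity with GSK343 less that in the control of the same line, so that 1 log2 unit is a doubling. The array medians lay between 449.8 and 498.8, and the median with GSK343 stood -0.08 log2 units from its control in HepG2 and 0.12 log2 units from it in A549. Values are given without removing these shifts unless median centring is named. As a yardstick, the within-gene probe spread (the SD of the difference between pairs of probes for 1 gene, divided by the square root of 2) was 0.39 log2 units in HepG2 and 0.42 log2 units in A549 over all pairs, and 0.26 and 0.36 log2 units among the brightest 25% of pairs. The probes of a pair share their arrays, so this spread leaves out variation between cultures and any change that the probes of a gene share. A difference larger than this spread has therefore not passed a test. The labels of the lines held against their markers: all 7 liver markers were higher in HepG2 control than in A549 control, by 4.80 to 11.74 log2 units, and all 5 measured A549 markers were lower in HepG2 control, by differences of -0.66 to -11.25 log2 units. PTPRC, PECAM1, CDH5 and CD3E, which mark blood and endothelial cells, had brightest-probe intensities of 20.7 to 596.1 over the 4 arrays. Of the 12 probes, 10 were at or above the median of their array on all 4 arrays. The CHAC1 probe lay below the median on every array and the VLDLR probe did so in HepG2.

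To show the regulatory sequence next to the measurements, the 250 bases before each RefSeq start site (build GRCh38.p14) were searched for TGATGNAA, the core of the element that ATF4 and C/EBP proteins bind together, and for TGACGTCA, the palindromic site of the CREB and ATF family. Both were searched on both strands, and the motifs did not overlap each other in the windows shown. All 10 genes had a window, 16 windows in all. TGATGNAA was found in windows of CHAC1 and ATF3, 2 of 10 genes, and occurred in 3.14% of all 35116 RefSeq windows of this length. TGACGTCA was found for PPP1R15A, 1 of 10 genes, and occurred in 1.65% of all windows. The member counts are of genes, some with more than 1 window, so they cannot be set directly against shares of windows. The windows with a match are given below with the match in capitals. As an example in which neither motif was found, 1 of the overlapping windows of TRIB3, the gene with the largest difference in A549, is given too. The other TRIB3 windows also held neither motif, as did the windows of several other members. Bases outside the windows were not searched.
CHAC1, chr15:40953221-40953470, plus strand: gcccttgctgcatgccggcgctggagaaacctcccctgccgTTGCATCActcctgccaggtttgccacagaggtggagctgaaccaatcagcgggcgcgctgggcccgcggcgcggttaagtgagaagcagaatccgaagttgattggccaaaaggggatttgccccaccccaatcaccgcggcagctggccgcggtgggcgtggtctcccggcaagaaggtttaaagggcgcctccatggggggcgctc
ATF3, chr1:212565157-212565406, plus strand: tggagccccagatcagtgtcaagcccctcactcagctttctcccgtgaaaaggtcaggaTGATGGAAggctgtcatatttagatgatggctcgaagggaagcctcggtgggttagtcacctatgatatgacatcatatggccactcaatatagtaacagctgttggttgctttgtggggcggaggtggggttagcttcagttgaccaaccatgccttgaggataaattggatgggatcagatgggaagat
PPP1R15A, chr19:48872171-48872420, plus strand: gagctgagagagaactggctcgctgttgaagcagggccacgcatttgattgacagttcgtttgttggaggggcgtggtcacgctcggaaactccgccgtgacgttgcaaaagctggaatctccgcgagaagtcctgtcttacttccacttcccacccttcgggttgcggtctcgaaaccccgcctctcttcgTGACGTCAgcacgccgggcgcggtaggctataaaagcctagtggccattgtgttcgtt
TRIB3, chr20:381045-381294, plus strand: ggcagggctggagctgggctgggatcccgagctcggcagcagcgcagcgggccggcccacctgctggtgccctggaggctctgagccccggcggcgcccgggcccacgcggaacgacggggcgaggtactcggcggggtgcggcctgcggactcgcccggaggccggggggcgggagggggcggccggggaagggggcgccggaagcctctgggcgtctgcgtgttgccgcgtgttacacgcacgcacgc
In CHAC1 the match lay 209 to 202 bases before the start and reads on the minus strand. In ATF3 it lay 191 to 184 bases before the more upstream of the ATF3 starts, and in PPP1R15A it lay 58 to 51 bases before the start. A match is a description of these letters, and binding was not measured.

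In A549 cells, 9 of the 10 genes were higher with GSK343, where 54.7% of all genes were, and VLDLR was lower. With median centring ATF4 was below 0 too, at -0.04 log2 units. TRIB3, DDIT4 and CHAC1 were higher by at least 1 log2 unit, which is 3 of 10 members, where 0.932% of 18338 genes passed this size in that direction. Their differences were 1.82, 1.13 and 1.09 log2 units. The members were chosen with earlier results of these data known. The shares over all genes, here and below, thus describe the members and are no test of the set. At 0.5 log2 units, a size chosen after the values were seen, 7 of 10 members were higher, where 7.83% of all genes were, and 0 members were lower, where 4.24% of genes were lower by 0.5 and 0.534% by 1 log2 unit. The median over the members was 0.71 log2 units, and over all genes it was 0.04 log2 units. With median centring the members' median was 0.60 log2 units, and 2 of 10, TRIB3 and DDIT4, were higher by 1 log2 unit. In HepG2 cells the values were closer to 0. Of 10 members 8 were above 0, where 46.7% of all genes were, and the median was 0.10 log2 units, where the median of all genes was -0.02. None of the members was higher by 1 log2 unit (0.458% of 18322 genes) or lower by 1 log2 unit (1.87% of genes). DDIT3 alone was higher by at least 0.5 log2 units (3.03% of genes), and PPP1R15A alone was lower by as much (7.22% of genes). SESN2, at 0.49 log2 units, lay just under this size.

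**Figure D1:**
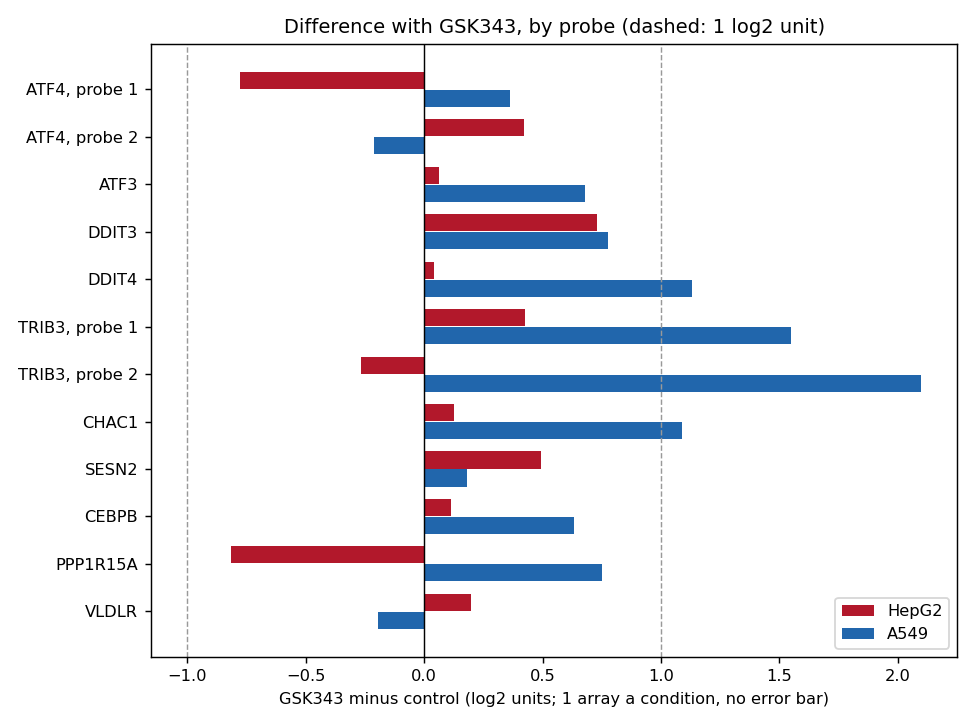
Difference with GSK343 for each of the 12 probes, in log2 units relative to control, in HepG2 (red, upper bar) and A549 (blue, lower bar), with 1 array a condition and no error bar. In A549 the TRIB3 probes reach 1.55 and 2.10 log2 units, while in HepG2 no bar reaches 1 log2 unit in either direction and the probes of ATF4 and of TRIB3 point opposite ways.

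Among the transcription factors, DDIT3 had the difference most alike in both lines. CHOP, its product, is a C/EBP family protein that is made under prolonged stress and favours cell death. The DDIT3 probe had an intensity of 10083 with GSK343 and 6075 in control in HepG2, and of 4555 with GSK343 and 2658 in control in A549. Both GSK343 arrays were thus above the control of their line, by 1.66-fold in HepG2 and 1.71-fold in A549 (0.73 and 0.78 log2 units). Both differences are larger than the within-gene probe spread. Of all genes, 1.12% in HepG2 and 2.39% in A549 had a difference as high or higher.

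ATF4 itself gave no common direction. Its probe PH_hs_0049589, among the brightest on every array, had 185200 with GSK343 and 138115 in control in HepG2, and 95182 with GSK343 and 110165 in control in A549. The differences were 0.42 and -0.21 log2 units. The other ATF4 probe, PH_hs_0027945, had 945.1 with GSK343 and 1621 in control in HepG2, and 797.1 with GSK343 and 619.5 in control in A549, which gives -0.78 and 0.36 log2 units. The probes thus had opposite signs within each line, and they lay further apart in HepG2 than in A549. The within-gene probe spread is scaled to a single probe and not to the distance between the probes of a pair. It therefore cannot show whether the ATF4 probes lay unusually far apart. As a mean, ATF4 had -0.18 log2 units in HepG2 and 0.08 log2 units in A549, and the A549 value was -0.04 log2 units with median centring.

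ATF3, a stress-induced factor that is activated by ATF4 and can repress its own promoter, had its larger difference in A549. Its intensity was 6248 with GSK343 and 5976 in control in HepG2, and 1862 with GSK343 and 1162 in control in A549. The HepG2 difference of 0.06 log2 units is far inside the within-gene probe spread, and the A549 difference was 0.68 log2 units, a fold of 1.60. CEBPB, a C/EBP factor and a binding partner of both ATF4 and CHOP, had 11121 with GSK343 and 10267 in control in HepG2, and 22621 with GSK343 and 14585 in control in A549. Its differences were 0.12 and 0.63 log2 units. For both genes the A549 arrays stood apart by more than the within-gene probe spread and the HepG2 arrays did not.

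**Figure D2:**
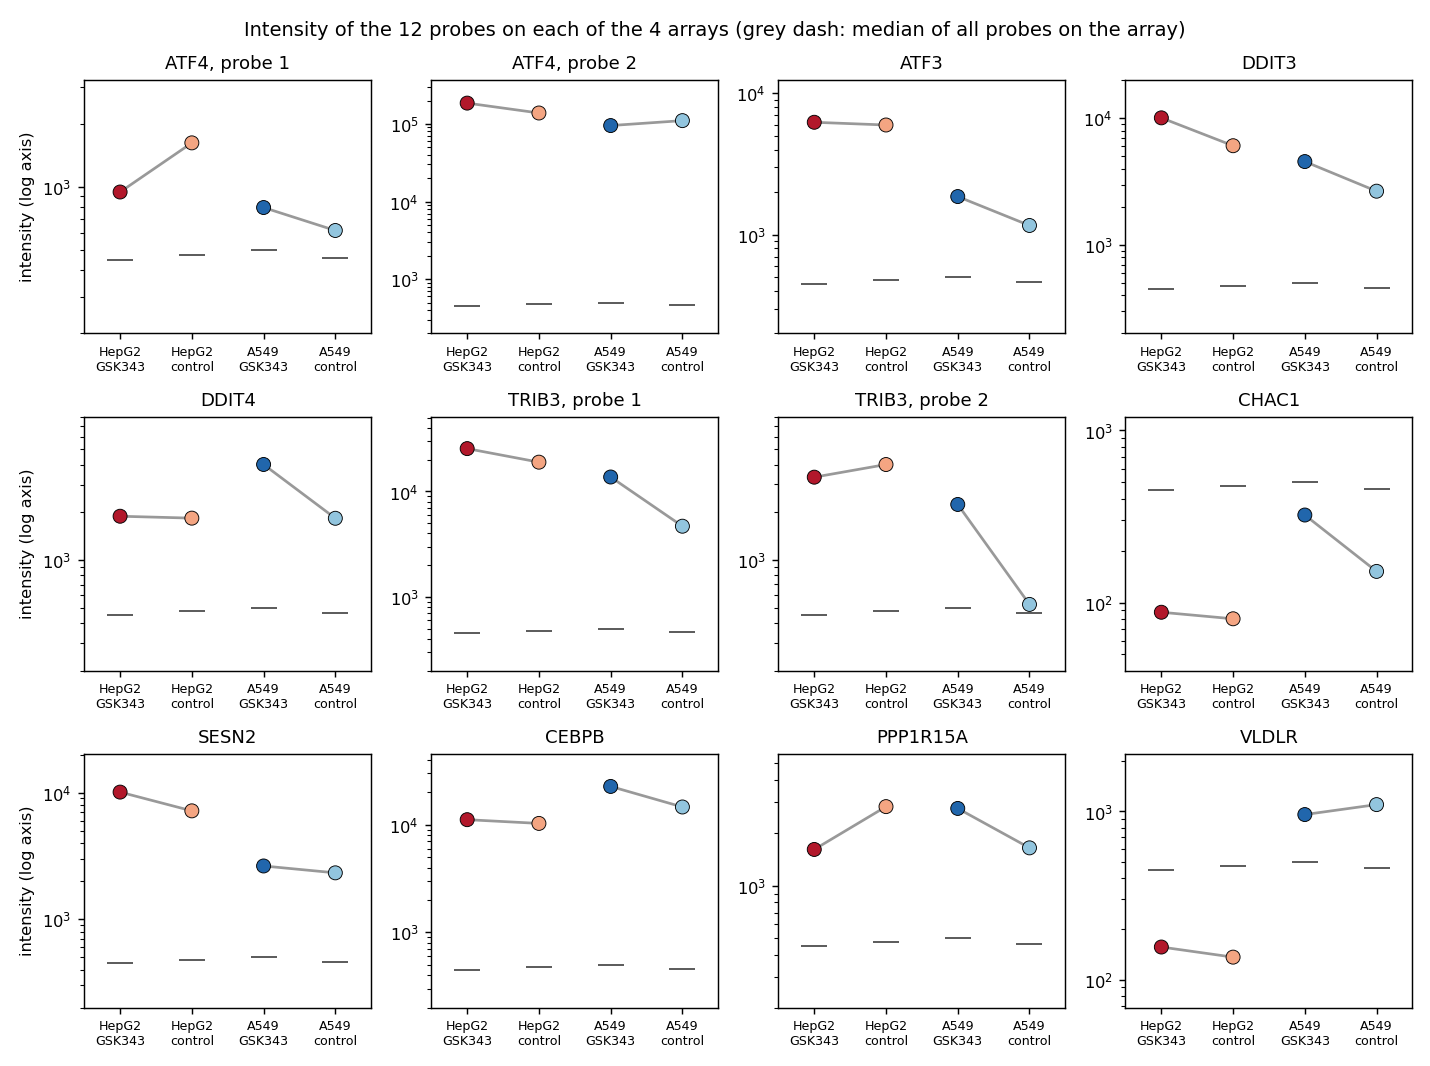
Intensity of each of the 12 probes on a log axis, for HepG2 with GSK343, HepG2 control, A549 with GSK343 and A549 control, 1 array each, with a grey dash at the median of all probes on that array. Between the controls, the HepG2 and A549 levels of ATF3, TRIB3, SESN2 and VLDLR stand furthest apart. The CHAC1 points lie under the grey dashes on all 4 arrays.

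TRIB3, a pseudokinase that CHOP and ATF4 induce and that binds and restrains ATF4 and the kinase AKT, had the largest difference of the members. Probe PH_hs_0023894 had 25487 with GSK343 and 18957 in control in HepG2, and 13709 with GSK343 and 4682 in control in A549. Probe PH_hs_0060828 had 3333 with GSK343 and 4005 in control in HepG2, and 2241 with GSK343 and 523.7 in control in A549. In A549 both probes were higher with GSK343, by 2.93-fold and 4.28-fold, while in HepG2 one was 1.34-fold higher and the other was at 0.832 of control. As a mean over its probes TRIB3 had 1.82 log2 units in A549, which placed it at rank 13 from the top among 18338 genes, and 0.08 log2 units in HepG2. The gap between the lines, HepG2 minus A549, was smaller with GSK343: for the mean of the probes it was 0.73 log2 units between the GSK343 arrays and 2.48 log2 units between the controls.

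PPP1R15A encodes GADD34, which directs protein phosphatase 1 to eIF2 and so reverses the block in translation. Its probe had 1609 with GSK343 and 2829 in control in HepG2, and 2762 with GSK343 and 1643 in control in A549. The GSK343 array was lower in HepG2 (0.569 of control, -0.81 log2 units) and higher in A549 (1.68-fold, 0.75 log2 units). Each difference exceeds the within-gene probe spread, and the gap between the lines was -1.56 log2 units. Across probes, the HepG2 and A549 differences had r = -0.0779 over all 31607 probes and r = -0.276 over the 15804 brighter ones. Probes are not independent replicates and those of a line share their arrays. The part of this relation in the PPP1R15A values was not tested.

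DDIT4 and SESN2 both restrain the growth kinase mTORC1. DDIT4 (REDD1) acts through the TSC complex and SESN2 is a leucine sensor that acts through GATOR2. DDIT4 had 1892 with GSK343 and 1841 in control in HepG2, and 4020 with GSK343 and 1837 in control in A549. The control levels of the lines were alike, and the A549 GSK343 array alone stood out, at 2.19-fold of its control (1.13 log2 units) against 0.04 log2 units in HepG2. SESN2 had 10109 with GSK343 and 7186 in control in HepG2, and 2637 with GSK343 and 2327 in control in A549. Here the larger difference was that of HepG2, with 0.49 log2 units, against 0.18 log2 units in A549, which is within the within-gene probe spread.

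CHAC1, which degrades glutathione and is a target of both ATF4 and CHOP, had 87.9 with GSK343 and 80.5 in control in HepG2, and 322.7 with GSK343 and 151.8 in control in A549. The A549 GSK343 array was 2.13-fold its control (1.09 log2 units), and the HepG2 difference was 0.13 log2 units. All of these values lie in the dim part of the arrays, at percentile 23.8 with GSK343 and 21.5 in control in HepG2 and at 43.6 and 32.6 in A549, and 1 log2 unit was not reached with median centring (0.97), quantile normalization (0.98) or an offset of 50 (0.89). VLDLR, the very low density lipoprotein receptor, had 156.1 with GSK343 and 135.9 in control in HepG2, and 958.4 with GSK343 and 1099 in control in A549. Its differences, 0.20 and -0.20 log2 units, had opposite signs and were both inside the within-gene probe spread.

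Between the control cultures, TRIB3, ATF3, SESN2 and DDIT3 were higher in HepG2 control than in A549 control by at least 1 log2 unit, by 2.48, 2.36, 1.63 and 1.19 log2 units. VLDLR was lower in HepG2 control, with -3.01 log2 units. That is 4 of 10 members in one direction, where 13.0% of 18339 genes were, and 1 of 10 in the other, where 13.7% were. ATF4, PPP1R15A, DDIT4, CEBPB and CHAC1 had 0.86, 0.78, 0.00, -0.51 and -0.91 log2 units, where the sign of DDIT4 turned with median centring (-0.05). In this contrast the within-gene probe spread was 0.92 log2 units, so these last 5 values do not exceed it, and DDIT3 exceeds it by little. The median over the members was 0.82 log2 units between the controls and -0.09 log2 units between the GSK343 arrays. Each line was on arrays of its own, so line and array cannot be told apart.

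Set against each other, 8 of 10 members had a lower difference in HepG2 than in A549. The gap (HepG2 minus A549) was -1.74 log2 units for TRIB3, -1.56 for PPP1R15A, -1.09 for DDIT4, -0.96 for CHAC1, -0.62 for ATF3 and -0.52 for CEBPB. For DDIT3 it was -0.05 log2 units, and for SESN2 and VLDLR it was 0.31 and 0.40 log2 units. The median gap was -0.57 log2 units over the members and -0.06 log2 units over all genes. Most genes on the array thus also had a lower difference in HepG2, and their exact share was not computed. A test of this gap needs replicate arrays within a line, so the gap was not tested. Brightness moved with the differences as well: in the brightest 25% of all probes the median difference was 0.04 log2 units in HepG2 and -0.07 log2 units in A549, and with a lowess curve on brightness removed the members' medians were 0.08 and 0.73 log2 units.

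**Figure D3:**
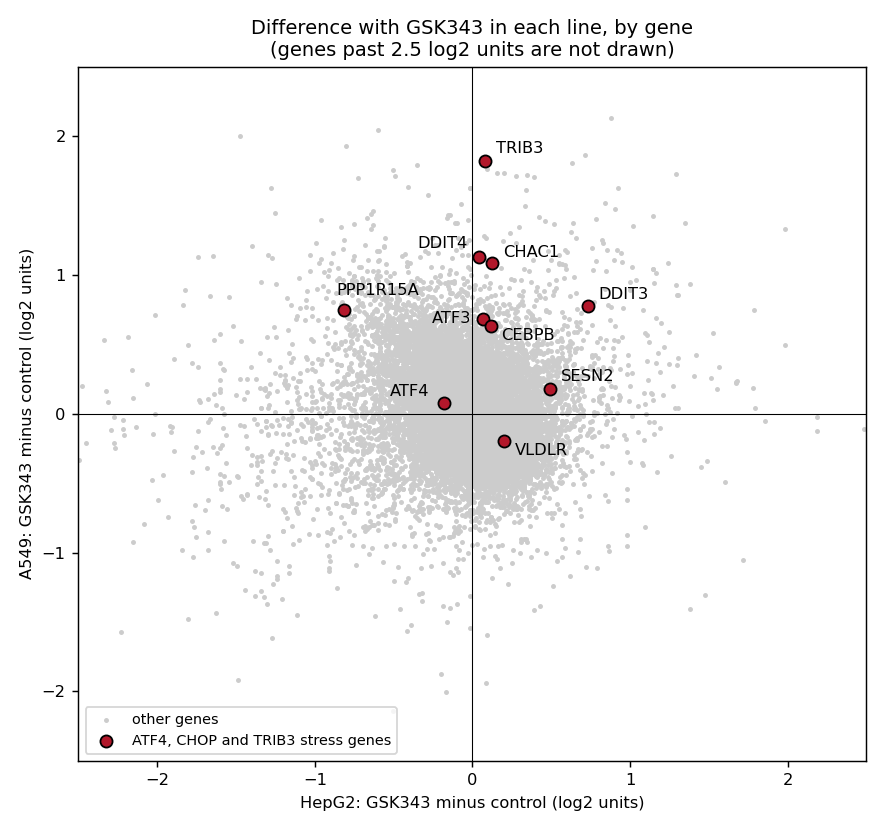
Difference with GSK343 in HepG2 (horizontal axis) and in A549 (vertical axis), in log2 units, for each gene with a single-gene probe (grey) and for the 10 stress genes (red, named), each from 1 array a condition. TRIB3, DDIT4, CHAC1, ATF3 and CEBPB lie near 0 on the HepG2 axis and at 0.63 to 1.82 on the A549 axis, DDIT3 is high on both, and PPP1R15A is at -0.81 in HepG2.

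As the one test that the design allows, both lines were fitted together with limma, with cell line as a block, so that the lines serve as the repeats of the GSK343 contrast. This leaves little information on error, since each line gives 1 difference. The fit therefore draws the error of each probe toward a value shared by probes of similar brightness. The lines gave 1 of the 6.885 total degrees of freedom, so the SEs below rest mostly on other probes. They are not the spread between the lines, which for PH_hs_0023894 of TRIB3 had 0.43 log2 units in HepG2 and 1.55 in A549. Of 31607 probes 0 were called at an adjusted p under 0.05 (0.00%), and so were 0 of the 12 member probes, while 1287 of all probes and 2 of the 12 had an unadjusted p under 0.05. The 2 member probes were those of DDIT3, with a mean of 0.75 ± 0.21 log2 units (SE, higher in 2 of 2 lines, limma adjusted p = 0.713), and PH_hs_0023894 of TRIB3, with 0.99 ± 0.30 log2 units (SE, higher in 2 of 2 lines, limma adjusted p = 0.815). The second TRIB3 probe had 0.92 ± 0.50 log2 units and the PPP1R15A probe had -0.03 ± 0.36 log2 units (SE). The other 10 member probes each had a limma adjusted p of 0.9998.

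The medians of the other gene lists lay closer to 0 than that of the members in A549. The list of eIF2 kinases, eIF2 subunits and their regulators, with all 15 genes measured, had 0 genes past 0.5 log2 units in either direction in either line. Over all genes, 3.03% in HepG2 and 7.83% in A549 were higher by this size, and 7.22% and 4.24% were lower. In a list of 15 genes a count of 0 lies near these shares. The list had a median of -0.06 log2 units in HepG2 and -0.06 log2 units in A549. EIF2AK3 (PERK), the kinase of ER stress, had 0.31 log2 units in HepG2 and -0.06 log2 units in A549, and EIF2S2, the beta subunit of eIF2, had 0.16 and 0.04 log2 units. EIF2S1, the subunit that is phosphorylated, had -0.13 and -0.29 log2 units, and EIF2AK2 (PKR) had -0.14 and -0.13 log2 units.

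Of 25 other targets and partners of ATF4 and CHOP, 2 were higher by 1 log2 unit in A549 and 0 in HepG2. In either line 0 were lower by as much. Over all genes, 0.932% in A549 and 0.458% in HepG2 were higher by 1 log2 unit, and 0.534% and 1.87% were lower. By 0.5 log2 units, 4 were higher and 0 lower in A549 (7.83% and 4.24% of all genes). In HepG2, 2 were higher and 1 was lower by as much (3.03% and 7.22% of all genes). These counts were not tested. The median was 0.05 log2 units in HepG2 and 0.10 log2 units in A549. GDF15, a stress-induced cytokine, was at 30618 with GSK343 and 47835 in control in HepG2, and at 8345 with GSK343 and 3078 in control in A549 (-0.64 and 1.44 log2 units). It thus had the signs of PPP1R15A in both lines. The other gene higher by 1 log2 unit in A549 was KLHL24, a ubiquitin ligase adaptor named after its values were seen. It had 0.55 log2 units in HepG2 and 1.08 log2 units in A549 as the mean of 3 probes. Its brightest probe was below the array median in HepG2 control, with 368.1. NUPR1, a small chromatin protein of the stress response, had 0.56 and 0.47 log2 units. At the low end, GADD45A, a growth arrest gene, had 0.20 log2 units in HepG2 and -0.46 log2 units in A549, and ERO1L, an oxidase of the ER, had 0.05 and -0.19 log2 units. ASNS, the asparagine synthetase and a standard ATF4 target that was also named after its values were seen, had 0.48 log2 units in HepG2 and -0.13 log2 units in A549. Other genes of the list had the larger value in A549: PHGDH had 0.03 and 0.51 log2 units, PSAT1 -0.003 and 0.40, and STC2 -0.12 and 0.61. MTHFD2 (0.12 and -0.16 log2 units) and GPT2 (0.01 and -0.12) had the signs of ASNS. These genes too were named after their values were seen.

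**Figure D4:**
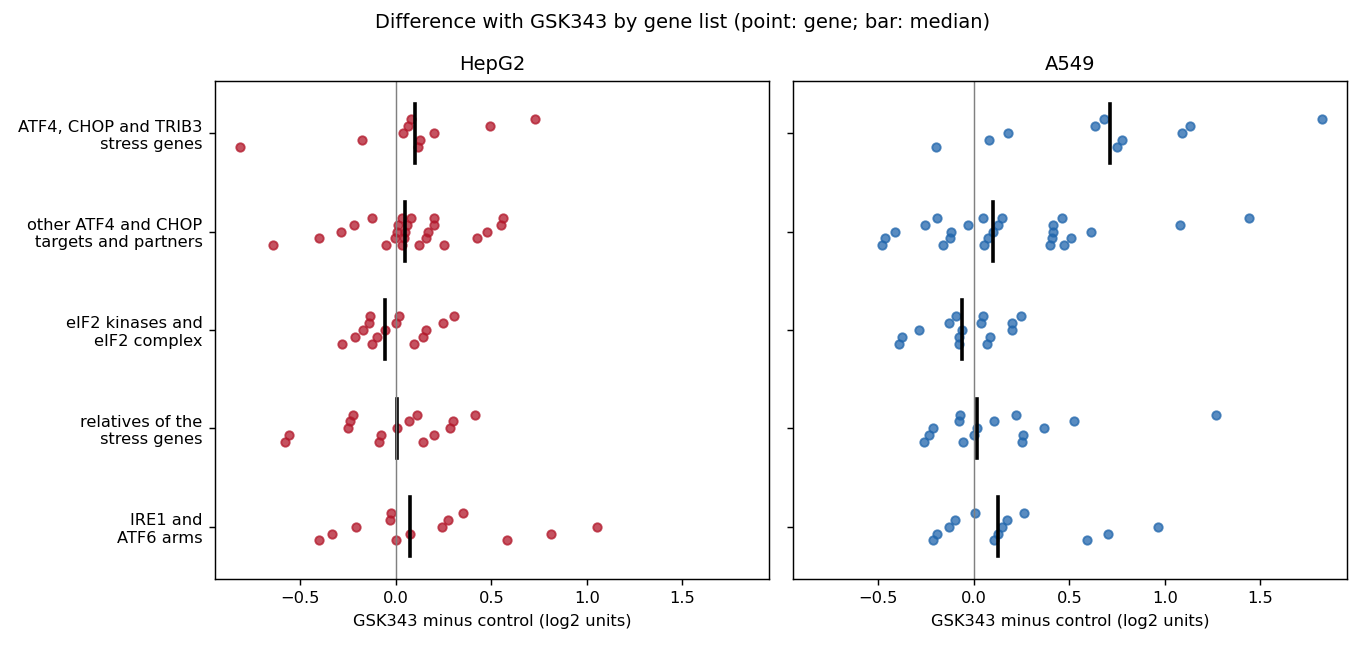
Difference with GSK343 (log2 units) of each gene in 5 lists, in HepG2 (left, red) and A549 (right, blue), with the median of the list as a black bar and 1 array a condition. The median of the stress genes is 0.71 in A549 and 0.10 in HepG2, and the medians of the other lists lie between -0.06 and 0.13 in both lines.

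Relatives of the members, such as TRIB1, TRIB2, SESN1, SESN3 and other C/EBP genes, had a median of 0.01 log2 units in HepG2 and 0.02 log2 units in A549 over 15 measured genes. Of these, 1 was higher by 1 log2 unit in A549, where 0.932% of all genes were. It was SESN3 with 1.27 log2 units, from a dim spot with 27.4 with GSK343 and 11.4 in control. This gene was named after its values were seen. LRP8, the closest relative of VLDLR listed, had 0.42 log2 units in HepG2 and -0.06 log2 units in A549, and ATF2 had 0.07 and 0.37 log2 units. JUN, a partner of ATF factors, had -0.25 and -0.24 log2 units, and FOSL1, also of the AP-1 family, had -0.56 and 0.00 log2 units.

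The IRE1 and ATF6 arms of the ER stress response are separate from eIF2, and 13 genes listed for them were measured. Which arm acted on a listed gene was not tested. In HepG2, 1 was higher by 1 log2 unit and 3 by 0.5 log2 units, and in A549 these counts were 0 and 3, with list medians of 0.07 and 0.13 log2 units. Over all genes, 0.458% in HepG2 and 0.932% in A549 were higher by 1 log2 unit. The shares higher by 0.5 log2 units were 3.03% in HepG2 and 7.83% in A549, and the difference between the lines was not tested. Of the 3 genes in HepG2, HERPUD1, of ER-associated degradation, had 1.05 log2 units in HepG2 and -0.13 log2 units in A549, the ER chaperone partner DNAJB9 had 0.81 and 0.13 log2 units, and SDF2L1, another ER protein, had 0.58 and -0.22 log2 units. Of the 3 genes in A549, XBP1, the factor activated by IRE1, had -0.34 log2 units in HepG2 and 0.96 log2 units in A549, HYOU1, an ER chaperone, had -0.40 and 0.70 log2 units, and ERN1 (IRE1) had 0.35 and 0.59 log2 units. The ERN1 signal was dim: its brightest probe lay below the median on every array, with 269.9 with GSK343 and 122.4 in control in A549. DNAJB9, like HERPUD1, was named by its mean over both lines, as were MANF (0.07 and -0.10 log2 units) and ATF6 (-0.21 and 0.10 log2 units), and the other 4 were named after their values were seen.

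The genes with the pattern most like 3 of the members were found by the distance between log2 levels on the 4 arrays, each gene centred on its own mean, over 9157 genes with a mean signal at or above the median. Nearest to DDIT3 were IDI1 (distance 0.19 log2 units) and SQLE (0.27), enzymes of cholesterol synthesis, and TGFBR3L (0.32). IDI1 had differences of 0.65 log2 units in HepG2 and 0.98 log2 units in A549. Nearest to TRIB3 were KRT13 (0.24), PRSS22 (0.24) and VSTM2A (0.32), and KRT13, a keratin, had differences of 0.35 and 1.72 log2 units. Nearest to ATF4, as the mean of its probes, were USP7, TRMU and RHOU at 0.02 to 0.03 log2 units.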

How the data were processed

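Total RNA was extracted with TRIzol, amplified and coupled to Cy5, and each sample was read on 1 Human OneArray Plus. The authors deposited 1 processed linear intensity for each of 31741 probes. Scanner, background correction and normalization are not given in the sources used here. 0 columns belonged to other series. Probe genes came from the platform annotation, and promoter sequences came from RefSeq (GRCh38.p14).

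Differences were taken on the log2 scale, GSK343 relative to control of the same line, with no further scaling and with values of 0 or less left out. Single-gene probes of 1 gene were averaged. Members and lists were chosen with earlier results of these data known. All members were named, with the 2 highest and 2 lowest genes of each list by the mean of both lines (brightest probe at or above the array median in each line), and the 3 nearest genes to ATF4, DDIT3 and TRIB3. Of 98 listed genes, 94 were measured.

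limma 3.58.1 (R 4.3.3) was fitted to all 4 arrays with a variance trend and cell line as a block, as a two-sided test. P-values were adjusted over 31607 probes (Benjamini-Hochberg), and the script was tested on simulated data. Nothing in the sources says whether the cultures were independent, so p-values measure only the spread between these arrays, drawn toward that of all probes. Python 3.11.15, numpy 2.4.6, pandas 2.3.3, statsmodels 0.14.6 and matplotlib 3.10.9 were used. The alternatives were median centring, quantile normalization, an offset of 50, probes at or above the median, the brightest probe, a size of 1.5 log2 units, and for limma no trend and no block. A size of 0.5 log2 units and a lowess curve on brightness (fraction 0.3) were added after the data were seen.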

Additional observations from a re-analysis of the deposited data

Results flagged for a closer look

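Of the 10 genes, 3 had opposite signs in the lines, and these differences between the lines were not tested. The share of all genes with opposite signs was not computed. It is not small, since 46.7% of all genes were above 0 in HepG2 and 54.7% in A549, with r = -0.0779 over all probes. The count is thus not a result about the members. PPP1R15A had -0.81 log2 units in HepG2 and 0.75 log2 units in A549, a gap of -1.56 log2 units, and each value exceeded the within-gene probe spread. ATF4 averaged -0.18 log2 units in HepG2 and 0.08 log2 units in A549 over its probes, a gap of -0.25 log2 units, and with median centring both were below 0 (-0.10 and -0.04 log2 units). With its brightest probe alone the signs of ATF4 turned, to 0.42 log2 units in HepG2 and -0.21 log2 units in A549, a gap of 0.63 log2 units. VLDLR had 0.20 and -0.20 log2 units, a gap of 0.40 log2 units. The mean values of ATF4 and the values of VLDLR lay inside that spread. Groups of 1 array allowed no check for outlying samples.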

How the results depend on the processing

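Under the alternatives run, the median over the members was 0.07 to 0.18 log2 units in HepG2 and 0.60 to 0.73 log2 units in A549, and it moved from its reported value by less than the within-gene probe spread. With a size of 1.5 log2 units, 1 member (TRIB3) was past it in A549, in place of 3 at 1 log2 unit. The count at 1 log2 unit was 2 with median centring, quantile normalization, an offset of 50, probes at or above the median or lowess on brightness. With median centring, 2 members in HepG2 were higher by 0.5 log2 units (DDIT3 and SESN2), in place of 1. ATF4 in HepG2 moved from -0.18 to 0.42 log2 units with the brightest probe, and in A549 its 0.08 turned to -0.21 with that probe and to -0.04 with median centring. The limma counts were 0 under every alternative run. For single genes and probes, 216 of 217 values kept their size within the spread or, for limma, their side of the threshold. This count is no measure of robustness. The brightest probe of a gene with 1 probe is the same probe, and a limma value counted as kept whenever its probe stayed uncalled. A turned sign of a small value, or a fall below 1 log2 unit, also counted as kept if it lay within the spread. The filter at the median left out CHAC1 in both lines and VLDLR in HepG2, and dim signal limits these values. No paired analysis was possible because each condition had 1 array, apart from the cell line block.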
